A study of Mus musculus with 2 samples.

Results

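The 10 genes described here encode membrane proteins of the synaptic vesicle and the synapsins that coat it. They were taken by gene symbol from the 55536 genes of the deposited tables, by a rule that uses no measured value: the tetraspan proteins Syp, Synpr, Syngr1 and Syngr3, the transporter-like glycoproteins Sv2a, Sv2b and Sv2c, and the synapsins Syn1, Syn2 and Syn3. All 10 symbols were found. The series holds 1 group, total RNA-seq of the hippocampus of male B6CASTF1/J mice, an F1 hybrid strain, aged 18 to 20 months, as 2 libraries made from 300 ng of RNA each. The tissue is labelled as a layer of the hippocampus. Both libraries carry the same donor record and are numbered as biological replicates 1 and 2. Nothing in the labels states that 2 animals were used, so the spread given below may be technical. No second genotype, treatment or age is part of the series, and each result is a level, a share or a difference between the 2 libraries, given as mean ± SD (n = 2). With 2 values the smallest two-sided p a sign-flip test could give is 0.5, so none is reported.

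Synaptic vesicles store transmitter in the nerve terminal and release it by fusing with the plasma membrane. Synaptophysin (Syp) and its relatives synaptoporin (Synpr) and the synaptogyrins (Syngr1, Syngr3) span the vesicle membrane with a bundle of helices and bind other vesicle proteins such as synaptobrevin. The SV2 proteins have the fold of sugar transporters, bind the calcium sensor synaptotagmin, and serve as entry receptors of botulinum neurotoxin A. Synapsins lie on the cytoplasmic face, tether vesicles to each other in a reserve cluster, and let go when kinases phosphorylate them near their amino-terminal end.

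Replicate 1 held 34563482 gene counts and replicate 2 held 32370292. The limit that a count of 0 allows, 3 counts, thus lay at 0.0868 and 0.0927 CPM (counts scaled to the library's total). Markers of the tissue were present: all 5 excitatory neuron genes, all 4 inhibitory, all 4 dentate granule, all 3 CA1 and all 3 CA3 genes had at least 1 TPM (a level corrected for transcript length and library size) in both libraries. This cut does not single out the hippocampus. It was passed by 12660 of the 22015 nuclear protein-coding genes, and by all 3 thalamic, 2 of 3 striatal and 3 of 5 choroid plexus genes. The libraries differed in choroid plexus genes. The 5 genes of that list summed to 36.4 TPM (replicate 1) and 694 TPM (replicate 2), and its leading gene Ttr stood at 29.9 and 672 TPM. In bulk RNA, fewer cells of a type and less RNA per cell cannot be told apart, and this holds for each level below.

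The coding sequences of the 3 synapsin genes begin alike, and the genes still gave separate counts. Shown first are 72 bases from the start of each coding sequence, with the bases common to all 3 in capitals (GENCODE M21 transcripts, mm10). The Syn1 stretch lies on the minus strand of chrX:20920718-20920789, the Syn2 stretch on the plus strand of chr6:115135084-115135155, and the Syn3 stretch on the minus strand of chr10:86467218-86467289. Syn2 is shown from coding base 4, where it lines up with the others.
Syn1: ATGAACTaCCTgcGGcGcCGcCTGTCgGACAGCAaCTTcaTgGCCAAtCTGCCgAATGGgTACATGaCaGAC
Syn2: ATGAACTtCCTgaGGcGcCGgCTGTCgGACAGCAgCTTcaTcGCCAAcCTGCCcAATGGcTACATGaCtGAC
Syn3: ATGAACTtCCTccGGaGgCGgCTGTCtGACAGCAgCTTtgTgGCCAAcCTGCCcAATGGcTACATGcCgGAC
Of the 72 bases, 56 were identical in all 3 genes. This stretch encodes the short amino-terminal domain that holds the conserved phosphorylation site of all synapsins. Over the whole coding sequence, identity was 75.0% between Syn1 and Syn2, 72.7% between Syn1 and Syn3 and 72.2% between Syn2 and Syn3. The longest stretch that transcripts of 2 synapsin genes shared without a mismatch was 26 bases, between Syn1 and Syn2.

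Between the tetraspan genes the longest shared run was also 26 bases (Syp and Synpr, 70.6% identical over the coding sequence), and between the SV2 genes 37 bases (Sv2b and Sv2c, 69.6%). The posterior SD of the gene count, the authors' measure of how far reads could be assigned to another gene instead, was 0 for all 10 genes in both libraries. Levels of the paralogs are therefore compared below as deposited. Assignment among transcripts of 1 gene was less certain, as shown further on.

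All 10 genes were detected at 1 TPM or more in both libraries, and 8 of them stood far above the typical gene. Their median level was 137 TPM, beside 3.14 TPM over all 22015 nuclear protein-coding genes and 14.5 TPM over the 12660 of these that were detected. Syp led, followed by Syn2, Syn1, Syngr1, Sv2a and Sv2b, then by Syngr3 and Synpr. Syn3 and Sv2c stood far below. The SD between libraries was 3.77% to 10.4% of the mean. All 10 TPM values were higher in replicate 2, beside 61.9% of the 14887 genes with a mean of at least 1 CPM. This direction depended on the scaling, as shown further on.

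**Figure D1:**
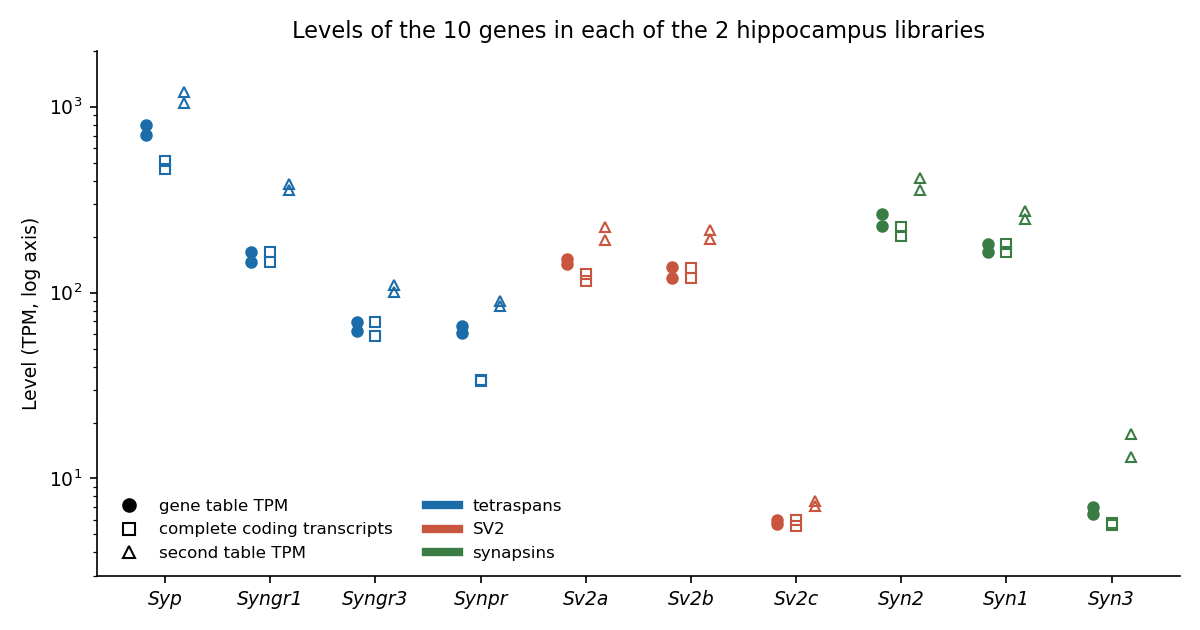
TPM (log axis) of each gene in the 2 libraries, from the gene table (filled circles), for transcripts with a complete coding sequence (open squares) and from the second transcript table (open triangles), with colours for the 3 families. Syp lies highest on each measure, and Sv2c and Syn3 lie lowest.

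Syp, which encodes synaptophysin, the standard marker protein of synaptic vesicles, measured 703 TPM (replicate 1) and 799 TPM (replicate 2), a mean of 751 ± 67.8 TPM. This put it at rank 23 of the nuclear protein-coding genes. It lies on the plus strand of chrX:7638471-7653256 and was covered by 31079 and 31576 counts. No other member came near it: the next gene, Syn2, was lower by 3.05 ± 0.0426 fold, and the values of the 2 genes did not overlap.

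The synaptogyrins and synaptoporin, the relatives of Syp, were lower. Syngr1 (chr15:80091334-80119501, plus strand), the main synaptogyrin of neurons, stood at 146 and 166 TPM (156 ± 14.1 TPM, rank 411). Syngr3 (chr17:24685092-24689955, minus strand), a synaptogyrin known to bind the dopamine transporter, stood at 62.5 and 69.4 TPM (66.0 ± 4.89 TPM, rank 1373). Genes of dopaminergic neurons were near the floor in the same libraries: Th, which encodes the enzyme that starts dopamine synthesis, had 0.23 and 0.18 TPM, and Slc6a3, the dopamine transporter, 0.06 TPM in both. Synpr (chr14:13284780-13616340, plus strand), known for its high level in the mossy fibre terminals of granule cells, stood at 60.8 and 66.5 TPM (63.7 ± 4.01 TPM, rank 1438). By gene TPM the values of Syngr3 and Synpr overlapped between libraries, although Syngr3 was the higher within each, by 1.04 ± 0.0115 times. On the other measures Syngr3 lay above Synpr without overlap, by 1.89 ± 0.255 times over complete coding transcripts, 1.21 ± 0.0246 times in the second table and 1.44 ± 0.175 times over the complete coding transcripts of that table.

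Of the summed TPM of the 4 tetraspan genes, Syp held 72.4% ± 0.193, Syngr1 15.0% ± 0.0451, Syngr3 6.37% and Synpr 6.15%. Syp was 4.82 ± 0.00163 times as high as Syngr1 and 11.8 ± 0.322 times as high as Synpr. Syngr1 was 2.36 ± 0.0391 times as high as Syngr3. Shares varied by less than 1 percentage point between the libraries, although each level was higher in replicate 2. The size of the Syp share moved with the measure: over transcripts with a complete coding sequence it was 65.9%, by the second transcript table it was 66.5%, and in counts not corrected for length 61.3%. Syp held the largest share on each of these measures.

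**Figure D2:**
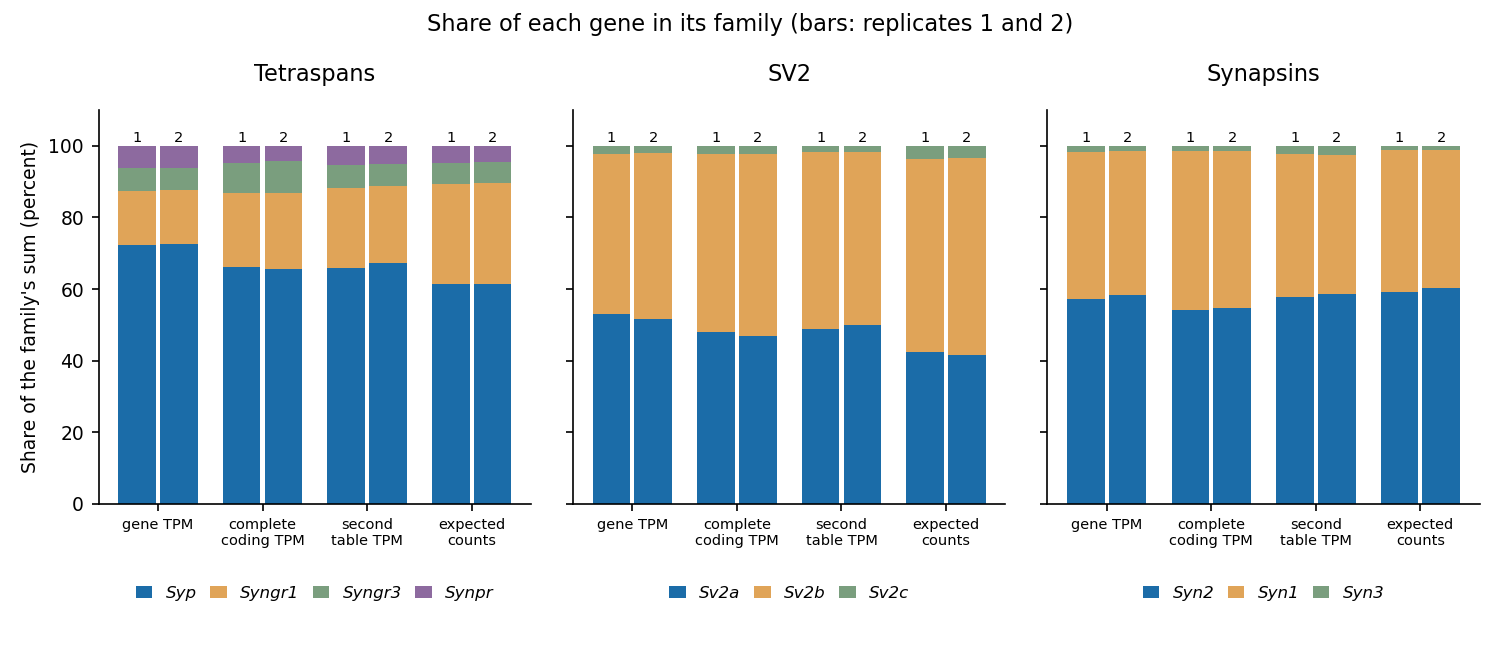
Share of each gene in the sum of its family, in percent, as bars for replicates 1 and 2 under 4 measures (TPM, TPM of complete coding transcripts, TPM of the second table, and expected counts). Syp and Syn2 hold the largest share of their families in each bar, whereas the larger of the Sv2a and Sv2b shares depends on the measure.

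Other members of the tetraspan family were scarce beside the 4. Sypl, a broadly expressed synaptophysin-like gene, reached 18.1 and 19.3 TPM (18.7 ± 0.884 TPM), and Syngr2, the synaptogyrin of non-neuronal tissue, 4.89 and 5.33 TPM. Syngr4 was listed at 0 in both libraries. In all, 3 of these 4 relatives had at least 1 TPM in both libraries, beside 12660 of the 22015 nuclear protein-coding genes.

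Both transcript tables assigned part of the Syp TPM to short transcripts. The gene has 6 annotated transcripts, of which only Syp-201, with 2591 bases and 314 amino acids, has a complete coding sequence. It held 464 and 510 TPM, 66.0% and 63.8% of the gene. In the first transcript table most of the rest lay on Syp-206, a noncoding transcript of 433 bases, of which 374 are also part of Syp-201. It held 226 and 276 TPM, 32.1% and 34.5% of the Syp TPM, but 6.09% (95% Clopper-Pearson interval 5.83 to 6.37) and 6.73% (6.45 to 7.01) of the Syp counts; such intervals cover counting error only. The second table listed Syp-206 at 0 in both libraries and put 25.8% and 29.1% of the Syp TPM on Syp-202, a transcript of 494 bases with an incomplete coding sequence. In counts of that table Syp-202 held 2.54% and 2.92% of the gene, and 392 of its 494 bases are also part of Syp-201. The tables thus disagreed on which short transcript was present, and the presence of either was not tested. On complete coding transcripts alone Syp stood at 487 ± 32.5 TPM, still 2.28 ± 0.0406 times Syn2.

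The complete coding transcripts of Synpr held 53.2% ± 3.89 of the gene's TPM, the lowest such share of the 10 genes in the first table. In the second table it was 60.8%, above Syn3 (48.6%) and Syngr1 (58.9%). Its lead transcript Synpr-201 held 33.4 and 33.2 TPM, the same to within 0.2 TPM, so the difference between the gene's 60.8 and 66.5 TPM lay on other transcripts. Synpr-208, a noncoding transcript of 668 bases that lies entirely within the exons of Synpr-201, held 35.9% and 39.7% of the gene TPM, and 18.5% and 11.4% in the second table. Synpr-209, also noncoding and within those exons, held 1.66% and 6.80%, and 17.0% and 29.0% in the second table. Neither adds an exon base to those of Synpr-201, and the tables divided the gene among them in different ways.

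Synpr is also annotated with more than 1 start. The starts change the beginning of the protein and are shown because they tell which form the hippocampus used. Capitals mark the coding bases that belong to 1 start only, and lower case the 24 bases that follow in both (GENCODE M21, plus strand, mm10). The coding sequence of Synpr-201 begins at chr14:13284985 and that of Synpr-202 at chr14:13454329, and both run to the shared exon that is shown up to base 13493531.
First start, Synpr-201: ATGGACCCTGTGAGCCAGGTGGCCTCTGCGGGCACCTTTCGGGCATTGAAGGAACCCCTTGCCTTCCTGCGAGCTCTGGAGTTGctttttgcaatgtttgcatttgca
Second start, Synpr-202: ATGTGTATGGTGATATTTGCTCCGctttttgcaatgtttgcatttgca
Synpr-201 encodes 285 amino acids and Synpr-202 265, and a complete coding transcript from a further start, Synpr-207, encodes 325. Transcripts that begin within 100 bases of the gene's first base held 98.7% ± 0.629 of the Synpr TPM, and 97.6% ± 0.935 in the second table. Among complete coding transcripts Synpr-201 held 98.5% ± 0.570, and 98.2% ± 0.570 in the second table. Synpr-202 held 1.15% ± 0.239 and Synpr-207 0.353% ± 0.331, beside 0% and 1.76% ± 0.570 in the second table. Both tables therefore put nearly the whole complete coding Synpr signal on Synpr-201.

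Both synaptogyrins had a lower share of complete coding transcripts in the second table. Of Syngr1, the complete coding transcripts held 99.4% ± 0.167 of the TPM in the first table but 58.9% in the second. The second table placed 27.7% and 26.3% on Syngr1-204 and 14.8% and 13.3% on Syngr1-203, both short and with incomplete coding sequences. In counts of that table, Syngr1-204 held only 1.96% and 1.75% of the gene and Syngr1-203 1.59% and 1.35%. Syngr1-201 held 96.1% and 96.4% of those counts. The first table gave Syngr1-204 0.70 and 0 TPM. As a result Syngr1 lay below Syn1 in the first table and above it, at 370 ± 18.1 TPM beside 261 ± 18.5 TPM, in the second. Within the complete coding transcripts the form of 234 amino acids, Syngr1-201, held 93.7% ± 0.926, and 96.6% ± 0.627 in the second table, with the rest on the form of 191 amino acids, Syngr1-202. Of Syngr3, the coding transcript Syngr3-201 held 93.0% and 100%, beside 69.4% and 74.9% in the second table. The remainder lay on Syngr3-202, which shares 1730 of its 1836 bases with it.

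**Figure D3:**
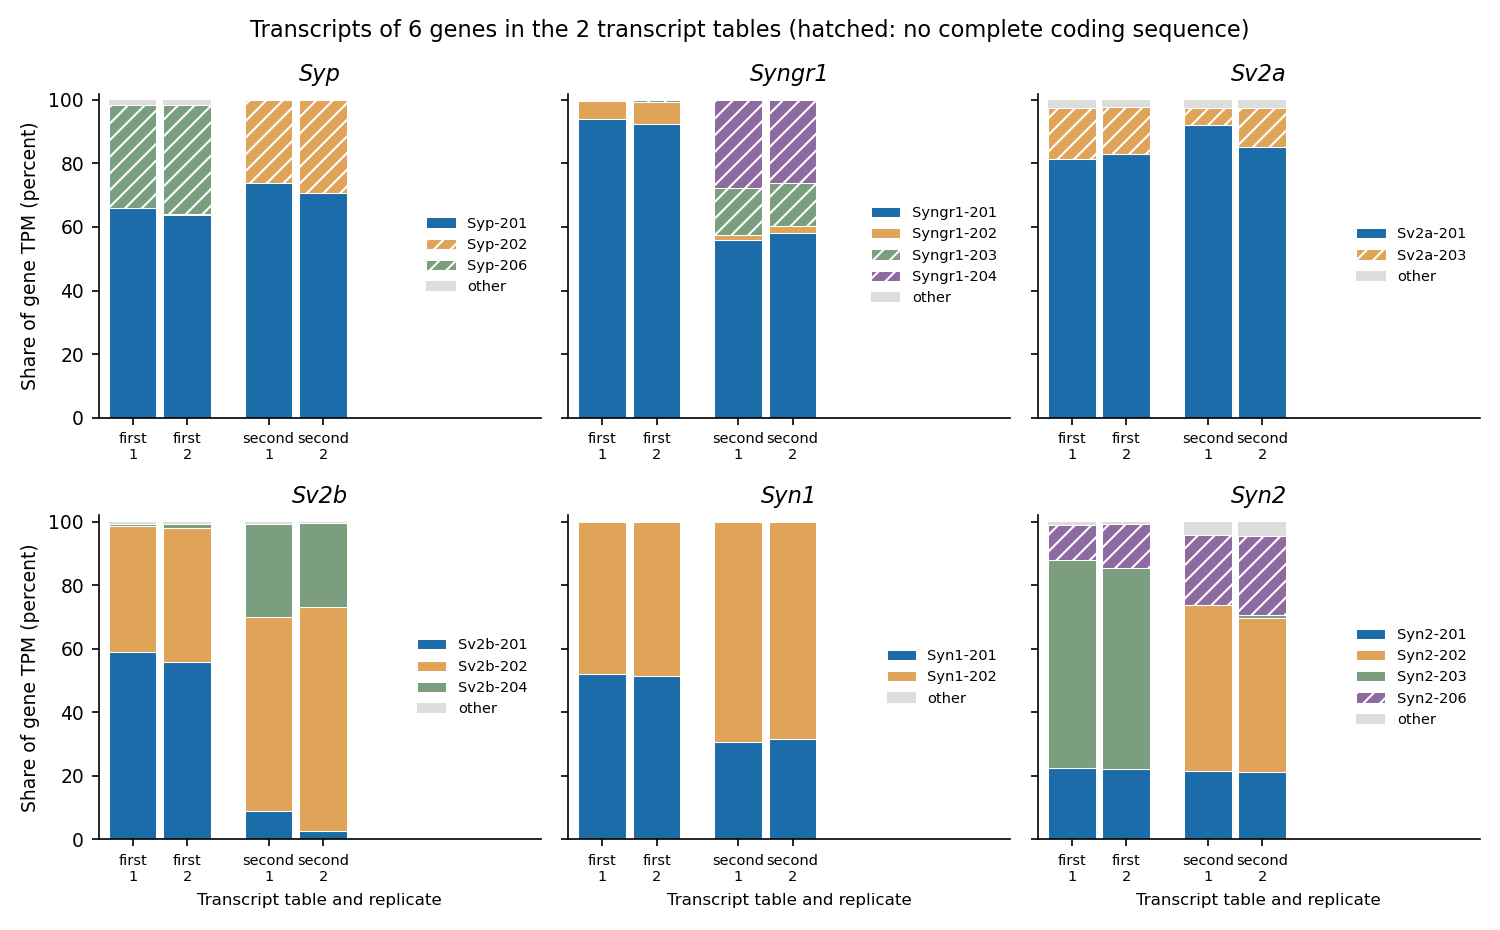
Share of the gene's TPM (percent) on each transcript that held at least 5% in either table, for 6 genes, in the first and second transcript table and in replicates 1 and 2. Replicates differ most in the Sv2b starts of the second table, where Sv2b-202 holds 61.0% and 70.4% and Sv2b-201 holds 8.97% and 2.57%. Between tables the bars differ in the short transcripts (hatched) of Syp and Syngr1. They also differ in which start of Sv2b, which form of Syn1 and which b transcript of Syn2 leads.

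Among the SV2 genes, Sv2a and Sv2b were both abundant and Sv2c was scarce. Sv2a (chr3:96181151-96195521, plus strand), the form found in nearly all terminals and the binding site of the antiseizure drug levetiracetam, stood at 142 and 151 TPM (146 ± 6.82 TPM, rank 451). Sv2b (chr7:75114894-75309262, minus strand), a form of forebrain glutamatergic terminals, stood at 120 and 137 TPM (128 ± 11.5 TPM, rank 548). Sv2c (chr13:95954594-96132577, minus strand), known from the basal ganglia and midbrain, stood at 5.66 and 5.97 TPM (5.82 ± 0.219 TPM, rank 9566), behind 1061 and 1027 counts. Sv2a was 25.2 ± 0.224 and Sv2b 22.1 ± 1.15 times as high as Sv2c, with no overlap in either case.

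The order of Sv2a and Sv2b was not settled by these data. By gene TPM Sv2a was above Sv2b in both libraries, by 1.14 ± 0.0496 fold, and the gap between their means, 18.1 TPM, was smaller than the sum of their SDs, 18.4 TPM. Over complete coding transcripts the ratio turned to 0.947 ± 0.0302. The difference between these measures lies in Sv2a-203, a noncoding transcript of 432 bases inside the exons of Sv2a-201, which held 16.0% and 14.5% of the Sv2a TPM but 1.52% and 1.35% of its counts. In the second table the ratio was 1.01 ± 0.0336 over all transcripts and 0.903 ± 0.0225 over complete coding ones. Of the summed TPM of the family, Sv2a held 52.2% ± 1.03, Sv2b 45.7% and Sv2c 2.07%.

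Markers of the striatum, where Sv2c is known to be high, were present at unequal levels. Of the 3 striatal genes Ppp1r1b, a phosphatase inhibitor of striatal neurons, stood at 23.6 and 27.6 TPM, Drd2, a dopamine receptor, at 1.01 and 1.33 TPM, and Adora2a, an adenosine receptor, at 0.72 and 0.64 TPM. The summed level of the 3 was 25.3 and 29.6 TPM, and none was at 0. Their part in the Sv2c level was not tested. Of the relatives of SV2, Svop, another transporter-like vesicle protein, reached 67.3 and 69.0 TPM (68.2 ± 1.21 TPM), above Sv2c, and Svopl stood at 0.17 and 0.13 TPM.

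Sv2b has 3 complete coding transcripts in GENCODE with different starts and the same coding length of 683 amino acids, and the 2 transcript tables disagreed on which was used. The bases before each start are shown because the disagreement is about these starts. Each stretch is the 100 bases before the start that RefSeq gives on the minus strand of chromosome 7 (RefSeq, GRCm38.p6), with the dinucleotide CG in capitals: chr7:75309263-75309362 for the upstream start of Sv2b-202, chr7:75308387-75308486 for the middle start of Sv2b-201, which GENCODE places 7 bases further on, and chr7:75220020-75220119 for the downstream start of Sv2b-204.
Upstream start: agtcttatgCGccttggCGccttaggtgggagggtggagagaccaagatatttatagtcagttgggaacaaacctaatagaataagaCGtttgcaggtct
Middle start: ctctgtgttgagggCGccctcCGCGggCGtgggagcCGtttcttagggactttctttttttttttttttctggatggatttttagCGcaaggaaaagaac
Downstream start: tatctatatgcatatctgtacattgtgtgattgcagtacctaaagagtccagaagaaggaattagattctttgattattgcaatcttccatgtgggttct
The stretches held 3, 6 and 0 CG. Over all 32851 promoter windows of the RefSeq table the median was 3, and 79.3% held at least 1. The dinucleotide reads the same on both strands, and the count describes these letters only.

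The first table put 41.3% ± 1.56 of the complete coding Sv2b TPM on the upstream start, 57.8% ± 2.25 on the middle one and 0.965% ± 0.688 on the downstream one. The second table gave 66.2% ± 6.58, 5.81% ± 4.57 and 28.0% ± 2.00. Complete coding transcripts held 99.3% of the Sv2b TPM in both tables, so the disagreement lay among these 3. The gene's level was 128 ± 11.5 TPM in the first table and 205 ± 16.7 TPM in the second. The part of the starts in that difference was not tested. Sv2b-202 shares 5132 of its 5524 bases with Sv2b-201. Sv2b-204 shares 3696 of its 3910 bases with Sv2b-201, and it ends earlier, at base 75116333 on this minus-strand gene, where Sv2b-201 runs on to base 75114897. The posterior SD of the Sv2b-201 count was 323 counts in replicate 1, beside a count of 9244. Of Sv2c, the form of 727 amino acids, Sv2c-201, held 78.5% ± 1.15 of the complete coding TPM, and 96.5% ± 0.256 in the second table. The shorter Sv2c-203, of 667 amino acids, held the rest.

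The synapsins were led by Syn2. Syn2 (chr6:115134902-115282006, plus strand) stood at 228 and 265 TPM (246 ± 25.7 TPM, rank 183), and Syn1 (chrX:20860511-20921004, minus strand) at 165 and 182 TPM (173 ± 12.3 TPM, rank 340). Both are synapsins of mature terminals. Syn3 (chr10:86055125-86498896, minus strand), known from immature neurons and early development, stood at 6.43 and 7.01 TPM (6.72 ± 0.410 TPM, rank 9149), behind 410 and 373 counts. Syn2 was 1.42 ± 0.0477 times as high as Syn1, and the lower Syn2 value lay above the higher Syn1 value. Syn1 was 25.8 ± 0.250 times as high as Syn3.

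Syn2 held 57.8% of the summed synapsin TPM, Syn1 40.7% ± 0.782 and Syn3 1.58%. Unlike the SV2 order, this one stayed the same under each measure, and only the distance changed: Syn2 was 1.23 ± 0.0171 times Syn1 over complete coding transcripts, 1.47 ± 0.0433 times in the second table, and 1.06 ± 0.000185 times over the complete coding transcripts of the second table, where the values of the 2 genes overlapped between libraries. The Syn1 share was 44.2% over complete coding transcripts and 39.5% in the second table. Between members of different families, the values of Syn1 overlapped those of Syngr1, and the values of Syngr1 those of Sv2a. Syn3 lay 1.16 ± 0.0270 times above Sv2c by gene TPM, and the 2 overlapped over complete coding transcripts.

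Syn1 and Syn2 each make an a form and a shorter b form that differ at the end of the protein. In Syn1 the forms differ by 2 acceptor sites of exon 13, and the 38 bases between them, in capitals, are in the a form only. They shift the reading frame of what follows. The stretch runs on the minus strand from the last 24 bases of exon 12 to 24 bases common to both forms, from chrX:20862522 to chrX:20861548 (GENCODE M21, mm10).
Syn1 a: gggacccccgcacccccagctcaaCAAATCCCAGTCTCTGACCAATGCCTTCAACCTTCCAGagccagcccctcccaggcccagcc
Syn1 b: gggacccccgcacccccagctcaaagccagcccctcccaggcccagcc
After exon 12 the a form codes for 133 bases and the b form for 25, which gives proteins of 706 (Syn1-201) and 670 amino acids (Syn1-202). In the first table the a form stood at 85.5 and 93.7 TPM and the b form at 79.1 and 88.2 TPM, so that the a form held 51.7% ± 0.318. In the second table it held 31.0% ± 0.679. The order of the forms therefore turned between the tables, by far more than the libraries differed. Syn1-202 is also annotated 86 bases longer at its 5′ end. The posterior SD of both counts in replicate 1 was 397, beside counts of 6677 and 6277.

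In Syn2 the forms part after 61 bases of exon 11. The a form is spliced there to a further exon, and the b form reads on through the same exon to an early stop. Shown are the last 24 shared bases and, in capitals, the next 48 coding bases of each form on the plus strand. The shared bases begin at chr6:115274233, the b stretch ends at chr6:115274304 and the a stretch, past the intron, at chr6:115278148.
Syn2 a: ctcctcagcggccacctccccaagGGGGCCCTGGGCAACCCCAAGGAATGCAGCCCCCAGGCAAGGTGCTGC
Syn2 b: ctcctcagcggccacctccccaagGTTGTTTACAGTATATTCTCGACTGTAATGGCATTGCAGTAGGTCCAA
The a form has 386 coding bases of its own and encodes 586 amino acids, and the b form 65 coding bases and 479 amino acids. Syn2 a stood at 51.1 and 59.0 TPM and Syn2 b at 150 and 167 TPM. The a form held 25.8% ± 0.435 of the complete coding TPM, and 29.5% ± 0.631 in the second table. Here the tables gave the same order, with Syn2 b ahead. They differed in which b transcript carried it: the first table put all of it on Syn2-203 and listed Syn2-202 at 0, and the second put 187 and 200.2 TPM on Syn2-202 and 0.0371 and 3.85 TPM on Syn2-203. The 2 transcripts encode the same protein and differ by 48 bases at the 5′ end.

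Syn2 also had a noncoding transcript, Syn2-206, which begins at chr6:115238994 inside the gene and shares 3145 of its 3257 bases with Syn2-203. It held 11.1% and 13.9% of the Syn2 TPM, and 22.2% and 24.9% in the second table. Of Syn3, the form of 579 amino acids, Syn3-201, stood at 5.29 and 5.62 TPM and held 96.0% ± 2.20 of the complete coding TPM. In the second table Syn3-205, a noncoding transcript of 566 bases, held 22.6% and 37.7% of the gene's TPM, beside 0% and 6.42% in the first. Of the gene's counts in the second table it held 2.90% and 6.54%. The second-table level of Syn3, 15.2 ± 3.02 TPM, thus includes a larger noncoding part, and its complete coding part was 48.6%.

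Each synapsin gene holds a gene of the tissue inhibitors of metalloproteinases, secreted proteins that block matrix proteases, inside it and on the other strand. Timp1 (chrX:20870166-20874735) lies in intron 5 of Syn1-201, Timp4 (chr6:115241892-115252205) within Syn2, and Timp3 (chr10:86300372-86349506) in intron 6 of Syn3-201. The order of their levels was not that of their hosts. Timp1 had 2 and 1 counts (0.11 and 0.06 TPM), at or under the limit of 3 counts, inside one of the most abundant of the 10 genes. Timp4 stood at 7.84 and 8.56 TPM (8.20 ± 0.509 TPM), and Syn2 was 30.0 ± 1.27 times as high. Timp3 stood at 23.6 and 25.6 TPM (24.6 ± 1.39 TPM), and here the host was the lower gene, with a Syn3 to Timp3 ratio of 0.273 ± 0.00120.

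**Figure D4:**
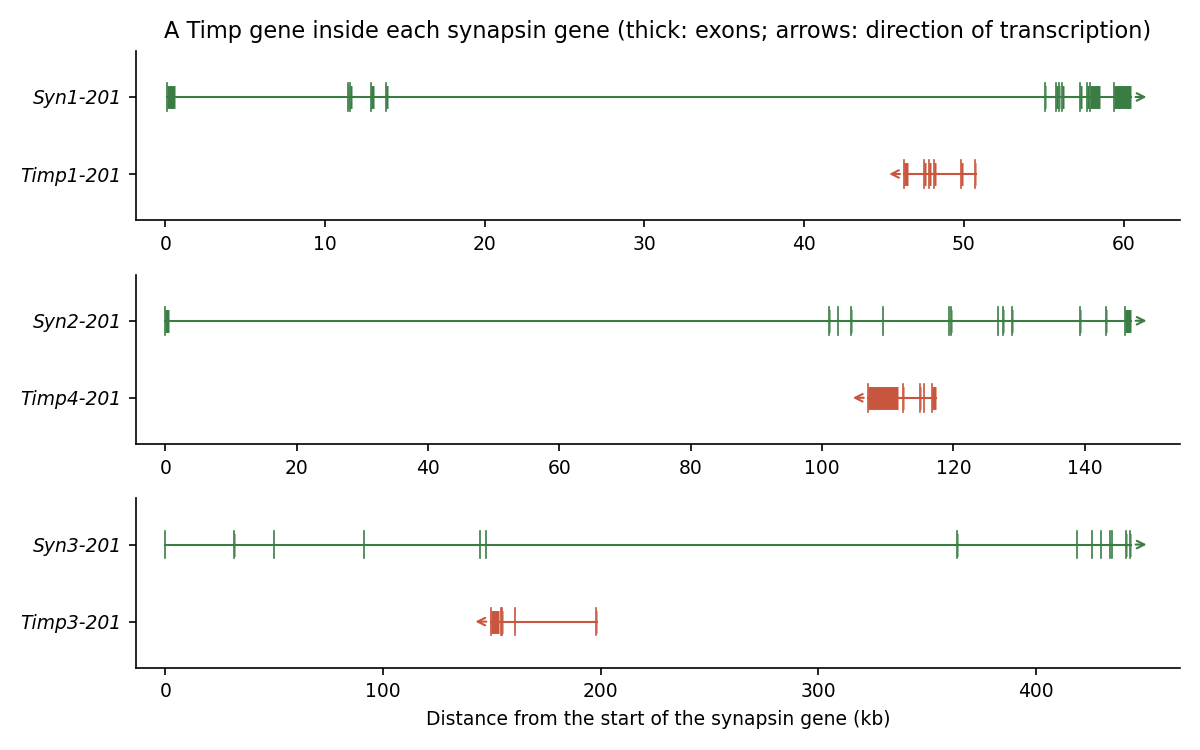
Exons of the lead synapsin transcript (green) and of the Timp transcript inside the gene (red) against the distance from the start of the synapsin gene in kb, with arrows for the direction of transcription and a thin stroke for exons too narrow to show. The Timp genes run against their hosts and lie in the span of a host intron for Timp1 and Timp3.

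Whether the authors counted by strand is not stated in the sources used here, so the overlap is given for these pairs. The posterior SD of the gene count was 0 for all 10 genes in both libraries, Syn2 and Syn3 included. By that measure none of their reads was spread over another gene. Timp1 shares no exon base with Syn1. Timp4 shares 90 exon bases with Syn2 transcripts. Timp3 shares none with Syn3-201 and 1733 with Syn3-203, a retained-intron transcript that held 7.31% and 5.85% of the Syn3 TPM, and Syn3 reads from that stretch cannot be told from Timp3 reads without strand. Syp overlaps the antisense gene Gm14703 by 875 exon bases, and that gene stood at 0.14 and 0.28 TPM. Sv2b overlaps an antisense gene by 47 exon bases and Syn1 overlaps Araf by 9.

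Other genes of the vesicle and the terminal were set beside the 10 as lists. Detected again means at least 1 TPM in both libraries, which 12660 of the 22015 nuclear protein-coding genes reached. All 6 vesicle SNARE and calcium sensor genes were detected (median 23.1 TPM), from Syt1, the fast calcium sensor of release, at 424 ± 23.1 TPM and Vamp2, synaptobrevin, at 407 ± 21.1 TPM down to Syt9 at 1.92 ± 0.325 TPM. The mean of Syp lay above both. Of the 6 transporters that load vesicles with transmitter 4 were detected (median 2.92 TPM). Slc17a7, which loads glutamate, stood at 579 ± 36.5 TPM, Slc32a1, which loads GABA, at 29.1 ± 1.52 TPM, and Slc18a3, which loads acetylcholine, had 0 and 1 counts.

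The list of vesicle-associated proteins was detected in full, 13 of 13, with a median of 113 TPM. Cplx2, a complexin that clamps and supports fusion, led at 388 ± 11.7 TPM, followed by Rab3a, the main small GTPase of synaptic vesicles, at 334 ± 18.7 TPM, and Rab3d was lowest at 6.70 ± 0.410 TPM. All 6 endocytosis genes were detected (median 137 TPM), with Dnm1, the dynamin that cuts vesicles from the membrane, at 533 ± 25.0 TPM, Synj1, a lipid phosphatase of uncoating, at 184 ± 4.64 TPM and Amph at 98.9 ± 6.04 TPM. The 7 active zone genes had a median of 81.0 TPM and a narrow range, from Rims1 at 108 ± 0.898 TPM and Unc13a, the priming factor Munc13-1, at 95.1 ± 2.39 TPM to Rims2 at 35.9 ± 0.905 TPM. The medians of these lists are descriptions of different genes and were not compared by a test.

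Between the 2 libraries the 10 genes differed little, as did most genes tested. After scaling by the trimmed mean of M values (TMM), the log2 ratio of replicate 2 to replicate 1 ran from -0.07 for Syn3 to 0.16 for Syn2. In none of the 10 did the larger value exceed the smaller by 25% or more, beside 8.53% of the 14887 genes with a mean of at least 1 CPM. Of those 14887 genes, 0.517% were at least 2-fold apart. For 10 genes a count of 0 is near the share of 8.53%. The members had means of 11.7 (Syn3) to 937 CPM (Syp), and the other genes were not matched to them by level. Of the genes tested, 23.7% lay at least as far from 0 as Syn2 and 41.4% as far as Syp. Among the members Syn2 (0.16), Sv2b (0.13), Syngr1 (0.11), Syngr3 (0.11), Syp (0.09), Syn1 (0.09), Sv2a (0.07) and Sv2c (0.02) lay above 0, and Synpr (-0.01) and Syn3 (-0.07) below. The 95% counting intervals of Sv2c, Synpr and Syn3 included 0. That of Syn3 ran from -0.27 to 0.14 on its 410 and 373 counts.

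The direction of these small ratios depended on the scaling. With TMM 8 of 10 were above 0, beside 49.3% of all genes tested, and in the deposited TPM 10 of 10, beside 61.9%. When the libraries were scaled by the ERCC spike-in RNA, 0 of 10 were above 0, beside 7.96%, and the median of all genes moved to -0.18. Relative to that median the members ran from -0.06 (Syn3) to 0.16 (Syn2). The cell type markers did not move as one between the libraries. With TMM all 5 choroid plexus genes were higher in replicate 2 by 25% or more. None of the 4 dentate granule genes was higher in replicate 2 with TMM (median log2 ratio -0.16). Their TPM summed to 133 and 131, and by TPM Stxbp6 was higher in replicate 2 (33.1 and 37.9 TPM). None of the 3 thalamic genes was higher in replicate 2 with TMM (median -0.22, summed TPM 25.6 and 21.1). The medians of the 5 excitatory and the 4 inhibitory genes were 0.07 and 0.06, and that of the 4 oligodendrocyte genes was -0.13. All 3 striatal genes were higher in replicate 2 with TMM (median 0.19), 1 of them by 25% or more. In TPM Adora2a was lower in replicate 2 (0.72 and 0.64 TPM). No gene of these lists was at 0 in both libraries. Their part in the ratios of the vesicle genes was not tested.

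**Figure D5:**
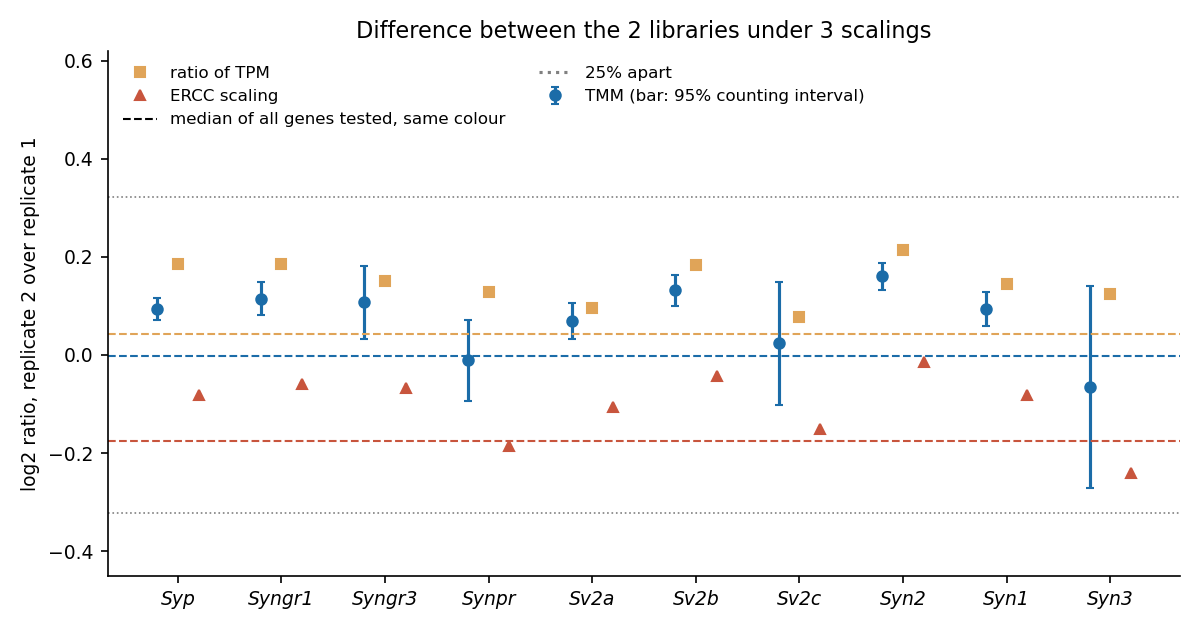
log2 ratio of replicate 2 to replicate 1 for each gene with TMM scaling (circles, bars for the 95% counting interval), in the deposited TPM (squares) and with ERCC scaling (triangles), with the median of all 14887 genes tested as a dashed line in the same colour and a difference of 25% as dotted lines. No gene passes the dotted lines under any of the 3 scalings, and with ERCC scaling all 10 lie below 0.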

How the data were processed

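Total RNA was sequenced from 2 hippocampus libraries, which the labels place in 1 group of equal strain, sex, age and tissue. The authors deposited, per library, a gene table and a transcript table with expected counts and TPM, the percent of gene TPM per transcript, and a posterior SD of each count (a score of assignment spread), in RSEM's column layout per the file headers, and a second transcript table with estimated counts and TPM in kallisto's layout per the file headers. Per the deposited notes and the labels, reads were compared with mm10 and GENCODE M21. For aligner, versions, filters and strand setting: not given in the sources used here. The posterior SD and all TPM are the authors' values.

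From these, means and SDs over 2 libraries, shares and ratios were computed in Python 3.11.15 (pandas 2.3.3). Transcripts counted as complete coding where they are protein-coding with no open end. Expected counts were rounded and scaled with edgeR 4.0.16 (TMM, prior count 0.5), for genes whose mean CPM reached 1; the step was tested on simulated data. DESeq2 1.42.0 size factors and ERCC sums were alternatives. The 96 ERCC rows stayed out of library sizes, as did the few other rows that name no gene (2.27e-05% and 1.49e-05% of counts). Counts of the 2 libraries differed by more than sampling noise (chi-square per degree of freedom 9.88 over 14887 genes), so they were not treated as copies of 1 library. Sequences were read from GENCODE M21 transcripts and the RefSeq promoter table, and coding identity from Biopython 1.88 alignments.

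The rule for the members names symbols and no values, but members and gene lists were chosen with earlier results of these data known. Named were all 10 members, the highest, second and lowest gene of each list, the 3 Timp genes and transcripts with at least 5% of their gene; marker genes, overlapping genes and other transcripts were named where a result touches them.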

Additional observations from a re-analysis of the deposited data

How the results depend on the processing

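With either library left out, the value is that of the other library, which for 2 libraries always lies within 1 SD of their mean and says nothing about stability. The Syp share ranged from 72.3% to 72.6%, the Sv2a share from 51.5% to 53.0%, the Syn1 share from 40.1% to 41.2%, the Syn1 a form from 51.5% to 52.0% and the Syn2 a form from 25.4% to 26.1%. Other measures gave other shares. From the second table, from complete coding transcripts and from counts not corrected for length, the Syp share was 66.5%, 65.9% and 61.3%, the Sv2a share 49.4%, 47.5% and 42.0%, and the Syn1 share 39.5%, 44.2% and 39.1%. The Syn1 a form was 31.0% in the second table and 51.3% in counts, and the Syn2 a form 29.5% and 19.6%. The cause of the differences between the tables was not tested. All 10 levels were higher in the second table, by 1.26 to 2.37 times, and higher by 2.40 times when TPM was rescaled over nuclear protein-coding genes. Of the log2 ratios between libraries, the count of members at least 25% apart was 0 under each of the 5 alternatives. With TMM the share over all genes tested was 8.53%, and a count of 0 among 10 genes is near it. That share was not computed for the alternatives. The count of members above 0 was 8 with TMM, with DESeq2 size factors, in the second table and without a filter on low counts, 10 in TPM and 0 with ERCC scaling. A ratio of 2 libraries has no value with 1 left out. No paired analysis was possible because the series has 1 group. Depth limits Syn3, whose transcripts share 410 and 373 counts.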
